A study of Mus musculus with 9 samples.

Results

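The 10 transcripts described here belong to macroautophagy: the cargo receptors Sqstm1 (p62) and Bnip3, the Atg8-family genes Map1lc3a, Map1lc3b and Gabarapl1, the conjugation factor Atg12, the initiators Ulk1 and Becn1, the lysosomal membrane protein Lamp2 and the transcription factor Tfeb. They were taken by symbol from a deposited expression table of 23231 genes, and all 10 are among the 10794 genes tested, those with a mean of at least 1 FPKM, a count of fragments divided by the length of the gene and the depth of the library. The table holds 9 RNA-seq libraries of tibialis anterior, a fast muscle of the lower leg, from 6-month-old C57BL/6 mice into which siRNA had been electroporated. Construct 5 and construct 7, both siRNAs against the ubiquitin ligase Ubr4, and a non-targeting siRNA have 3 libraries each; no other allele or agent is named. The labels do not say whether the libraries come from separate animals or what share of the fibres took up siRNA, so p-values measure the spread between libraries, which may be technical.

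In macroautophagy a double membrane closes around cytoplasm and fuses with the lysosome. The Ulk1 and Becn1 kinase complexes start the membrane, a conjugation system that includes Atg12 attaches LC3 and GABARAP proteins to it, and receptors such as Sqstm1 tie ubiquitinated cargo to those proteins. Skeletal muscle uses the pathway in fasting, exercise and atrophy, and the Sqstm1 protein is itself degraded by it, so a transcript level does not measure autophagic flux.

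Promoters of 3 members are shown because Lamp2 is the member whose levels across libraries were most like those of Sqstm1, and Bnip3 is the only member matched whose window holds CACGTG. RefSeq windows (GRCm38.p6) were found for 7 of the 10 members, Tfeb with 3 windows; Map1lc3a, Atg12 and Becn1 were not analysed here for sequence. Each line gives the 250 bases before the annotated start, 5′ to 3′ on the gene's strand, with capitals for CACGTG or for CCGCCC on either strand. The windows are chr11:50210821-50211070, chrX:38456461-38456710 and chr7:138909507-138909756, all on the minus strand.
Sqstm1: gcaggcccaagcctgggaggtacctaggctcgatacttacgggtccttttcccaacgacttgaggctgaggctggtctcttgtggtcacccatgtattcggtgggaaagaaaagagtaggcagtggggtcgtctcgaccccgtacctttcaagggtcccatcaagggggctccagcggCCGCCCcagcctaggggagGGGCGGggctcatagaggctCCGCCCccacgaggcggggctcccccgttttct
Lamp2: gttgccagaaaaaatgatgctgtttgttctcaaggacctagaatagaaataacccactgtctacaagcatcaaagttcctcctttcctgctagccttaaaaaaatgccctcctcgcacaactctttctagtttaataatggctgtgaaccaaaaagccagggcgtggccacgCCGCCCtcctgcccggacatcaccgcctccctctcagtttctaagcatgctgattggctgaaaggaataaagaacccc
Bnip3: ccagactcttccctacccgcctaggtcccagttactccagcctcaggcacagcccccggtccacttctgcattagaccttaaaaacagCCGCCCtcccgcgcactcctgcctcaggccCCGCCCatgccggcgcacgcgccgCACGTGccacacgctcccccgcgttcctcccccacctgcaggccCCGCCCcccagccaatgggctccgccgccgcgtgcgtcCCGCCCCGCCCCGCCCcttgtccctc
CACGTG is the core of the element that Tfeb binds, CCGCCC the core of the GC box, and TGACNNNGC the core of the antioxidant response element bound by Nrf2. CCGCCC on either strand was present in 9 of 9 member windows and in 32.7% of 32851 windows genome-wide, with 3 matches in Sqstm1, 1 in Lamp2 and 6 in Bnip3, of which neighbours in the last run share a base. CACGTG stood in 1 of 9, at base -108 of Bnip3, and in 6.02% of all windows. TGACNNNGC was found in 0 of 9 member windows on either strand and in 10.2% of all. These are matches of letters within the windows, not binding sites.

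Ubr4, the targeted gene, was below the non-targeting range in all 6 libraries with an siRNA against it, which checks the labels. It had 3.61, 3.80 and 2.73 FPKM with construct 5, 2.25, 2.58 and 3.07 FPKM with construct 7, and 7.82, 10.3 and 9.09 FPKM with the non-targeting siRNA. The log2 changes were -1.20 (limma adjusted p = 0.0169) and -1.47 (adjusted p = 0.00882). All 10 muscle fibre markers were present in every library, at summed levels of 75070 to 84929 FPKM with construct 5, 67649 to 86086 FPKM with construct 7 and 81944 to 89063 FPKM with the non-targeting siRNA. Depth recovered from the table was 29263327 to 45502674 reads per library, and each member had at least 1110 recovered reads in every library. Changes below are differences of log2(FPKM + 1) from limma over all 9 libraries, with Benjamini-Hochberg adjustment over the 10794 genes and a threshold of 0.05.

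Across the table construct 5 libraries were shifted upward: the median log2 change of all tested genes was 0.13 with construct 5 and 0.02 with construct 7. Median-ratio scaling, which centres the libraries on a common median, brought the construct 5 median to 0.02. Each construct 5 value below is therefore to be read against 0.13, and scaled values are given where the call or the direction differs.

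**Figure D1:**
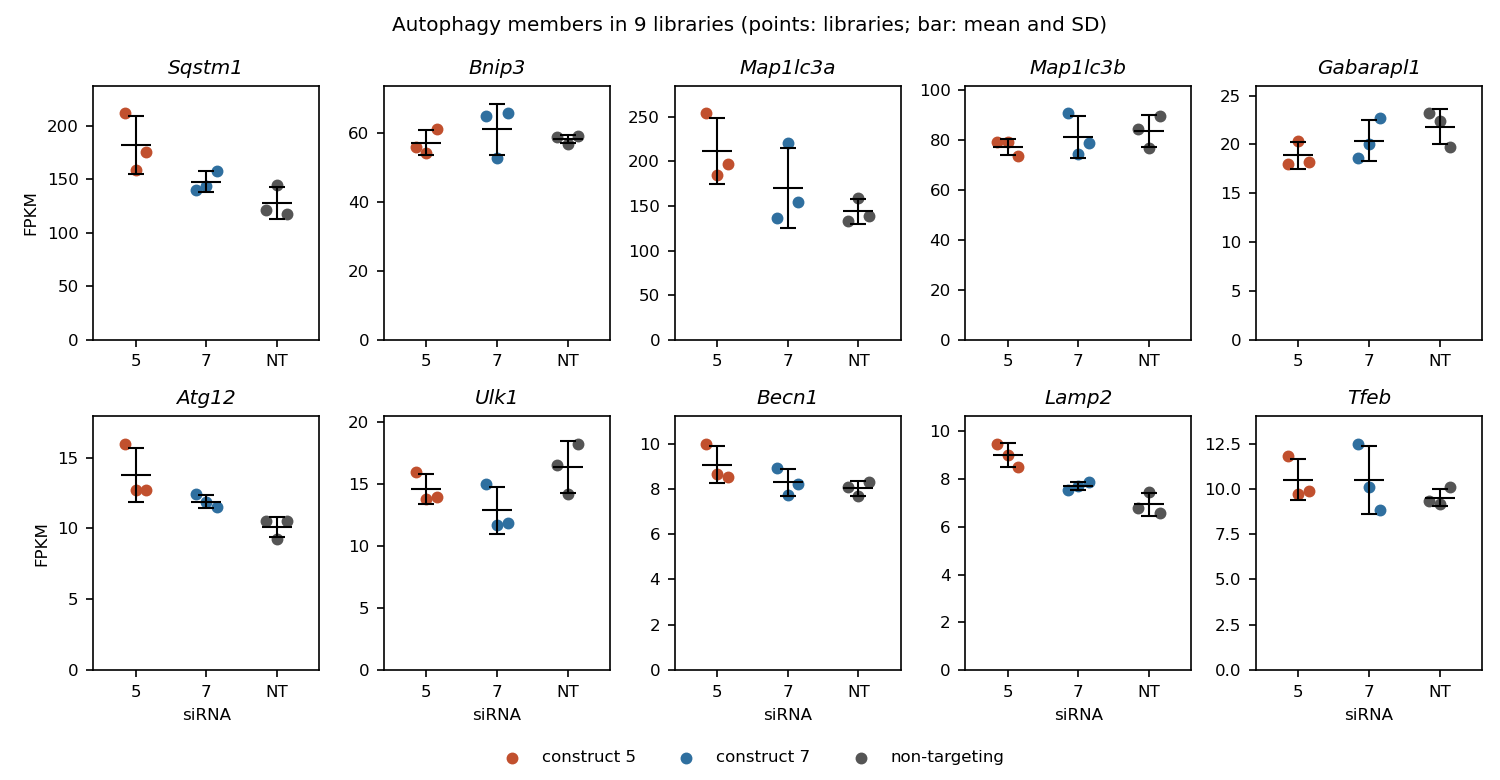
FPKM of the 10 members in each library (points), with the group mean and SD (bars), for construct 5, construct 7 and the non-targeting siRNA (NT), 3 libraries each. Sqstm1, Map1lc3a, Atg12, Becn1 and Lamp2 have construct 5 libraries that all lie above the non-targeting ones; the other 5 members overlap.

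With construct 5, 3 members rose: Sqstm1, Atg12 and Lamp2, by 0.33 to 0.50 on the log2 scale. Of all tested genes 5.27% were called in this comparison, 4.67% upward and 0.602% downward. No member was called lower. With construct 7, 0 of 10 members were called, where 0.0556% of all genes were; 2 members, Atg12 and Ulk1, had an unadjusted p under 0.05 there, as did 9.47% of genes. In the mean of both constructs 0 members were called, against 0.00926% of genes, and 5 had an unadjusted p under 0.05, against 19.1%. The median change of the 10 members was 0.14 with construct 5 and 0.09 with construct 7, near the medians of all genes.

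Sqstm1, the receptor that carries ubiquitinated proteins into autophagosomes, had 212, 159 and 176 FPKM with construct 5, 140, 144 and 158 FPKM with construct 7, and 121, 145 and 118 FPKM with the non-targeting siRNA. Every construct 5 library lay above every non-targeting one, while the construct 7 range took in the highest non-targeting library. The mean was 182 ± 27.0 FPKM with construct 5, 148 ± 9.61 FPKM with construct 7 and 128 ± 14.9 FPKM with the non-targeting siRNA (SD, n = 3 each). Sqstm1 rose by 0.50 ± 0.12 (log2 change and SE, limma adjusted p = 0.0493) with construct 5, a ratio of means of 1.42. With construct 7 the change was 0.21 ± 0.12 (limma adjusted p = 0.637), and construct 7 minus construct 5 was -0.30 (limma adjusted p = 0.186), so a difference between the constructs was not called. The construct 5 call sits at the threshold: median-ratio scaling gave 0.37 (limma adjusted p = 0.12) with overlapping groups, and without construct 5 replicate 1 the adjusted p was 0.154.

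Bnip3, a receptor on the outer mitochondrial membrane that recruits LC3 and is induced by hypoxia, differed little between the groups as deposited. It had 55.9, 54.1 and 61.1 FPKM with construct 5, 64.7, 52.6 and 65.6 FPKM with construct 7, and 58.7, 56.8 and 58.9 FPKM with the non-targeting siRNA. The groups overlapped in both comparisons, and the non-targeting libraries differed little among themselves, with a coefficient of variation of 1.99%. The log2 changes were -0.03 ± 0.0928 with construct 5 and 0.06 ± 0.0928 with construct 7 (limma adjusted p = 0.848 and 0.902). Scaled, the construct 5 change was -0.16 (limma adjusted p = 0.36).

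The Atg8-family genes encode the ubiquitin-like proteins that are attached to the autophagosome membrane, and the 3 members had construct 5 estimates of both signs. Map1lc3a had 254, 185 and 197 FPKM with construct 5, 136, 221 and 154 FPKM with construct 7, and 133, 159 and 139 FPKM with the non-targeting siRNA. The construct 5 libraries all exceeded the non-targeting ones, and 1 construct 7 library, replicate 2, stood with the construct 5 group while the other 2 lay in the non-targeting range. Map1lc3a had the largest point estimate of the 10 members with construct 5, 0.55, but also the largest SE, 0.181, and was not called (limma adjusted p = 0.089). Without construct 7 replicate 2, which enters only through the shared estimate of the spread, it passed at an adjusted p of 0.0483.

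Map1lc3b, its close relative and the LC3 usually followed on immunoblots, did not share that pattern. It had 78.9, 78.9 and 73.3 FPKM with construct 5, 90.6, 74.4 and 78.5 FPKM with construct 7, and 84.2, 76.7 and 89.4 FPKM with the non-targeting siRNA. Gabarapl1, of the GABARAP branch, had 18, 20.4 and 18.2 FPKM with construct 5, 18.6, 20.0 and 22.7 FPKM with construct 7, and 23.2, 22.4 and 19.7 FPKM with the non-targeting siRNA. The groups overlapped for both genes. The construct 5 estimates were -0.11 for Map1lc3b (limma adjusted p = 0.411) and -0.20 for Gabarapl1 (limma adjusted p = 0.185). With median-ratio scaling they were -0.25 and -0.33, still not called (limma adjusted p = 0.139 and 0.114), and the construct 5 libraries of both then lay below all non-targeting ones.

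A ratio within a library is free of scaling between libraries. Map1lc3a FPKM divided by Map1lc3b FPKM, a ratio picked after the values were seen, was 3.22, 2.34 and 2.69 with construct 5, 1.5, 2.98 and 1.96 with construct 7, and 1.58, 2.07 and 1.56 with the non-targeting siRNA. All construct 5 ratios exceeded all non-targeting ones, and construct 7 spanned both. The mean ratio was 2.75 ± 0.442 with construct 5, 2.14 ± 0.755 with construct 7 and 1.74 ± 0.293 with the non-targeting siRNA (SD, n = 3 each). No p-value is given for the ratio, since it was picked from these values. Map1lc3a made up 54.1, 48.0 and 50.6% of the summed FPKM of 5 Atg8-family genes with construct 5, 39.8, 53.0 and 43.0% with construct 7, and 40.8, 44.6 and 41.9% with the non-targeting siRNA.

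**Figure D2:**
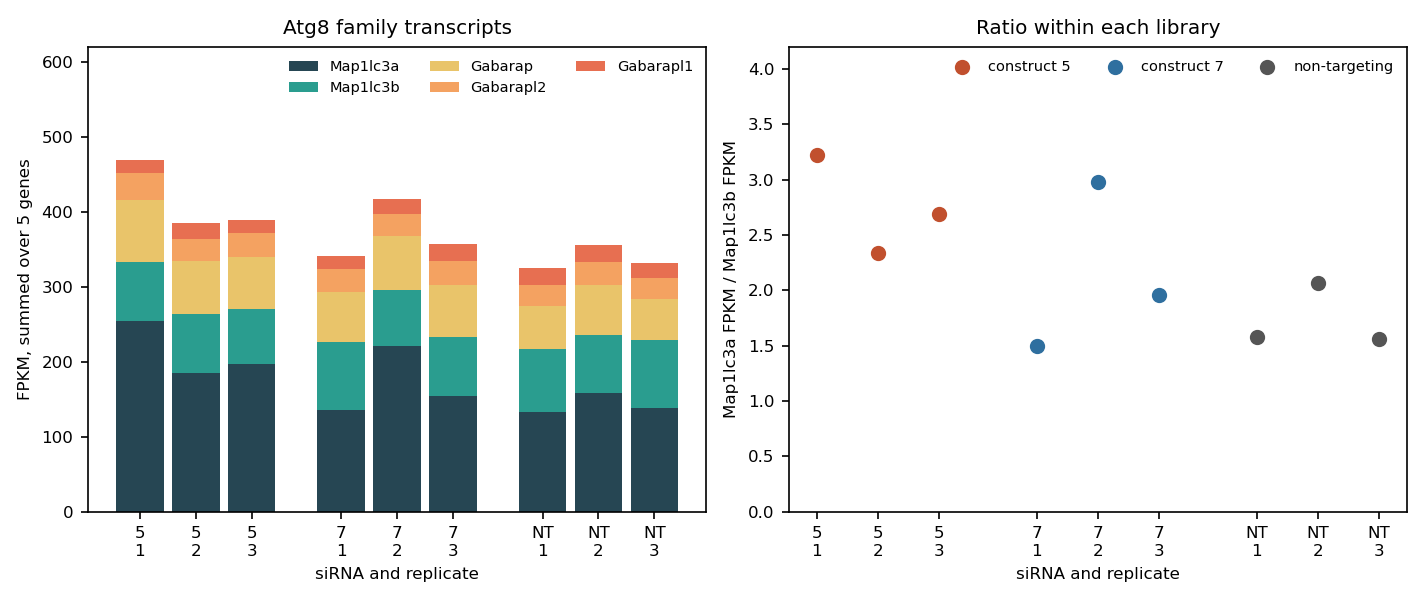
Left, stacked FPKM of Map1lc3a, Map1lc3b, Gabarap, Gabarapl2 and Gabarapl1 in each library; right, Map1lc3a FPKM divided by Map1lc3b FPKM in the same libraries. The ratio is 2.34 to 3.22 in the construct 5 libraries, 1.5 to 2.98 in the construct 7 libraries and 1.56 to 2.07 in the non-targeting libraries (NT).

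Atg12, the ubiquitin-like protein that is joined to Atg5 to form the enzyme that lipidates LC3, was higher in every library with a Ubr4 siRNA. It had 16.0, 12.7 and 12.7 FPKM with construct 5, 12.4, 11.9 and 11.5 FPKM with construct 7, and 10.5, 9.24 and 10.5 FPKM with the non-targeting siRNA. Neither construct overlapped the non-targeting group. Atg12 rose by 0.42 ± 0.0957 (limma adjusted p = 0.0491) with construct 5; with construct 7 the change was 0.23 ± 0.0957 and not called (limma adjusted p = 0.504). In the mean of both constructs it was 0.32 (limma adjusted p = 0.114). Scaled by median ratios the construct 5 change was 0.29 (limma adjusted p = 0.102).

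Ulk1, the kinase that starts autophagosome formation, had 16.0, 13.8 and 14 FPKM with construct 5, 15, 11.7 and 11.9 FPKM with construct 7, and 16.6, 14.2 and 18.3 FPKM with the non-targeting siRNA. Both Ubr4 siRNA groups overlapped the non-targeting one. It had the lowest estimate of the members with construct 7, -0.33 ± 0.119 (limma adjusted p = 0.421), and was -0.15 ± 0.119 with construct 5 (limma adjusted p = 0.391). Becn1, a subunit of the lipid kinase complex that marks the forming membrane, had 10, 8.65 and 8.54 FPKM with construct 5, 8.90, 7.73 and 8.23 FPKM with construct 7, and 8.09, 7.68 and 8.31 FPKM with the non-targeting siRNA. Its construct 5 libraries lay above the non-targeting ones, but the change of 0.15 was close to the median of all genes and not called (limma adjusted p = 0.208); scaled, it was 0.03.

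Lamp2, a lysosomal membrane protein needed for fusion and for chaperone-mediated autophagy, had the smallest SE of the members. It had 9.49, 9 and 8.49 FPKM with construct 5, 7.56, 7.69 and 7.87 FPKM with construct 7, and 6.78, 7.47 and 6.56 FPKM with the non-targeting siRNA. The 3 groups did not overlap: every construct 5 library exceeded every construct 7 library, which in turn exceeded every non-targeting library. After median-ratio scaling construct 7, with 7.64, 7.84 and 8.05, overlapped the non-targeting libraries, with 7.11, 7.78 and 6.71. Lamp2 rose by 0.33 ± 0.0692 (limma adjusted p = 0.0438) with construct 5, while construct 7 gave 0.13 ± 0.0692 (limma adjusted p = 0.597). Construct 7 minus construct 5 was -0.20 (limma adjusted p = 0.147). Scaled, the construct 5 change was 0.21 (limma adjusted p = 0.11).

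Tfeb, the transcription factor that drives lysosomal and autophagy genes once it enters the nucleus, had 11.8, 9.73 and 9.90 FPKM with construct 5, 12.5, 10.1 and 8.85 FPKM with construct 7, and 9.31, 9.19 and 10.1 FPKM with the non-targeting siRNA. The groups overlapped, replicate 1 of both constructs being the highest. The log2 changes were 0.12 and 0.11 (limma adjusted p = 0.491 and 0.827), and the construct 5 change turned to -0.0039 with median-ratio scaling. Its activity depends on its location in the cell, which these data do not measure.

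**Figure D3:**
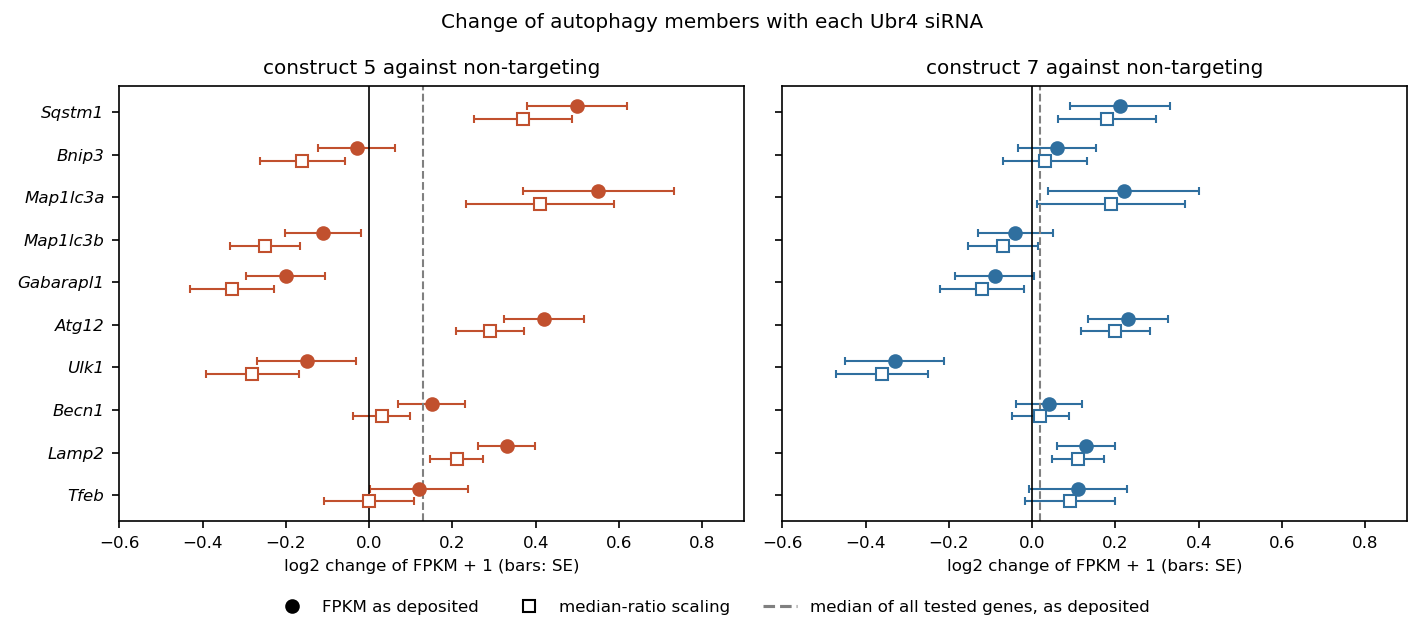
Log2 change of FPKM + 1 with its SE for each member, construct 5 (left) and construct 7 (right) against the non-targeting siRNA. Filled circles are values as deposited and open squares are values after median-ratio scaling. The dashed line is the median of all tested genes as deposited. Sqstm1, Map1lc3a, Atg12, Becn1 and Lamp2 lie right of the dashed line with construct 5 as deposited, and Bnip3, Map1lc3b, Gabarapl1 and Ulk1 lie left of 0.

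Counted by overlap, 5 members had construct 5 libraries that were all above the non-targeting ones, as did 33.0% of tested genes, and 0 had them all below, as did 5.19%. After median-ratio scaling 3 members (Map1lc3a, Atg12 and Lamp2) lay wholly above, as did 15.7% of genes, and 3 (Map1lc3b, Gabarapl1 and Ulk1) wholly below, as did 14.5%. In that scaling 0.667% of genes were called with construct 5 and 0 members were. With construct 7, 2 members (Atg12 and Lamp2) lay wholly above the non-targeting libraries, against 10.5% of genes; scaled, only Atg12 of the 10 did, against 8.31%. Between the constructs, 3 members (Sqstm1, Atg12 and Lamp2) were lower in every construct 7 library than in any construct 5 library, as were 22.4% of genes; 0 were called, against 1.22% of genes. Scaled, Lamp2 alone remained wholly lower, as did 10.8% of genes, and Map1lc3b was wholly higher, as were 10.6%.

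By group mean, all 10 members came in the same order in every group, but Map1lc3a and Sqstm1 overlapped in all 3 groups. With construct 7 Map1lc3a was the higher of the pair in 1 of 3 libraries only. Among non-targeting libraries Map1lc3a (144 FPKM) and Sqstm1 (128 FPKM) ranked 300 and 345 of 23231 genes by mean FPKM. Map1lc3b, Bnip3, Gabarapl1 and Ulk1 followed without overlap of neighbours. Atg12 and Tfeb overlapped each other, and Becn1 and Lamp2 (6.94 FPKM, rank 4317) closed the order without overlap. With construct 5 Ulk1 and Atg12 overlapped, as did Becn1 with both Tfeb and Lamp2. With construct 7 all neighbours from Ulk1 down overlapped.

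The 3 called members drew their small p-values from narrow margins. Of 16 other settings, Sqstm1 kept its call in 1, Atg12 in 2 and Lamp2 in 6, with adjusted p-values of 0.046 to 0.154 for Sqstm1, 0.045 to 0.149 for Atg12 and 0.0407 to 0.15 for Lamp2. The direction held in all of them, with log2 changes of 0.37 to 0.60 for Sqstm1, 0.29 to 0.47 for Atg12 and 0.21 to 0.38 for Lamp2. Leaving out construct 5 replicate 1, which had the highest Sqstm1, Map1lc3a, Atg12, Becn1 and Lamp2 of all libraries, left 1 of all tested genes called with construct 5, against 569 with it. The count was similarly low without any 1 of the non-targeting libraries (2 to 4 genes) and without construct 7 replicate 3 (6 genes), which is in neither group compared.

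**Figure D4:**
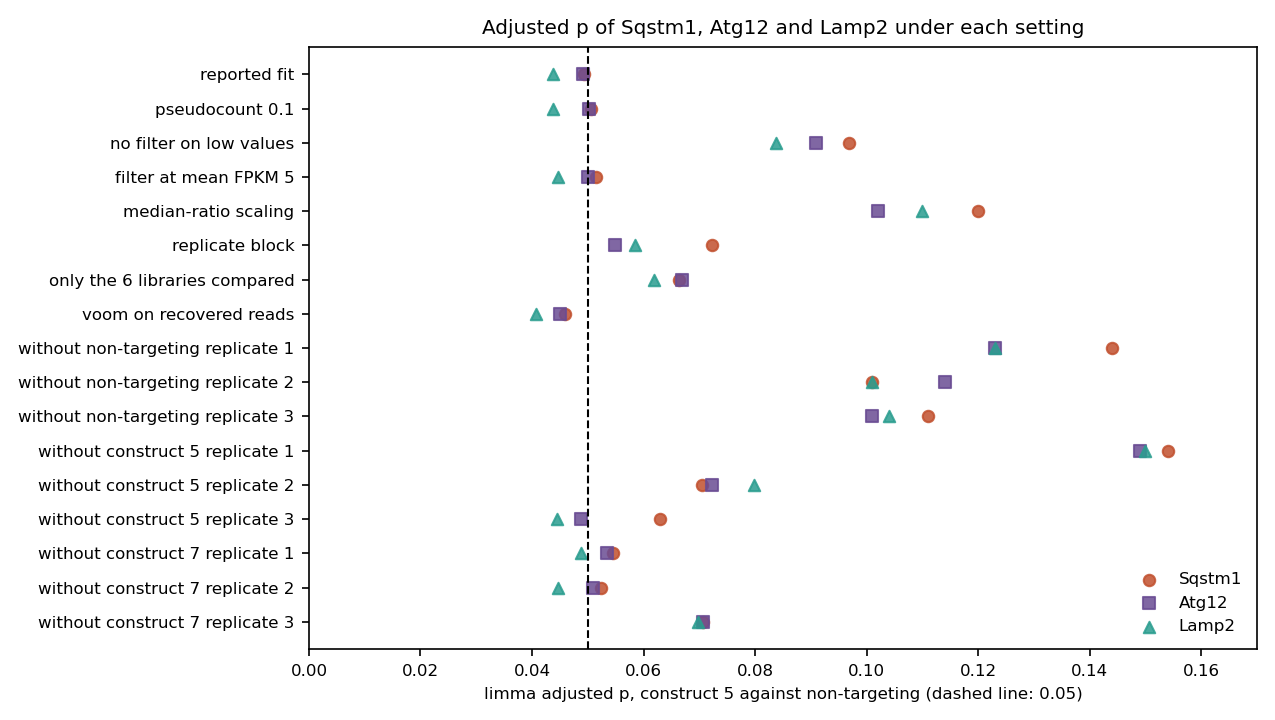
limma adjusted p of Sqstm1, Atg12 and Lamp2 with construct 5 against the non-targeting siRNA under the reported fit and 16 other settings; the dashed line marks 0.05. Most settings lie right of the line, up to 0.154 for Sqstm1 without construct 5 replicate 1.

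Markers of macrophages and fibroblasts also had higher summed levels with construct 5 than with the non-targeting siRNA, and 4 of 17 macrophage and 1 of 8 fibroblast markers tested were called higher, against 4.67% of all tested genes. After median-ratio scaling 0 markers of either list were called, against 0.667% of all tested genes. The median scaled change with construct 5 was still 0.65 for the macrophage and 0.28 for the fibroblast markers, against 0.02 for all tested genes. All 18 macrophage markers had values above 0 in every library. All 18 had a higher mean with construct 5 than with the non-targeting siRNA, as did 5 of 18 with construct 7. Of all tested genes 76.7% had a log2 change above 0 with construct 5 and 57.0% with construct 7. The summed level of the macrophage markers was 364, 464 and 264 FPKM with construct 5, 127, 209 and 148 FPKM with construct 7, and 173, 231 and 159 FPKM with the non-targeting siRNA. Lyz2 was a large part of these sums, with means of 173, 68.3 and 90.9 FPKM in the same groups. The 8 fibroblast markers summed to 462 to 706 FPKM with construct 5, 283 to 314 FPKM with construct 7 and 360 to 418 FPKM with the non-targeting siRNA, and 8 endothelial markers to 84.2 to 110 FPKM, 86.0 to 97.4 FPKM and 87.5 to 101 FPKM in the same groups. The 3 construct 5 libraries had the highest macrophage sums of all 9 libraries, and also the highest Sqstm1 and Lamp2. Within that group replicate 2 had the highest macrophage sum and the lowest Sqstm1 and Map1lc3a. Atg12 and Lamp2 were above the non-targeting libraries in all construct 7 libraries as deposited, whose macrophage sums overlapped the non-targeting ones; scaled, this held for Atg12 and not for Lamp2. In bulk muscle more cells of a type and more RNA per cell cannot be told apart, and the part of these cells in the members' changes was not tested.

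**Figure D5:**
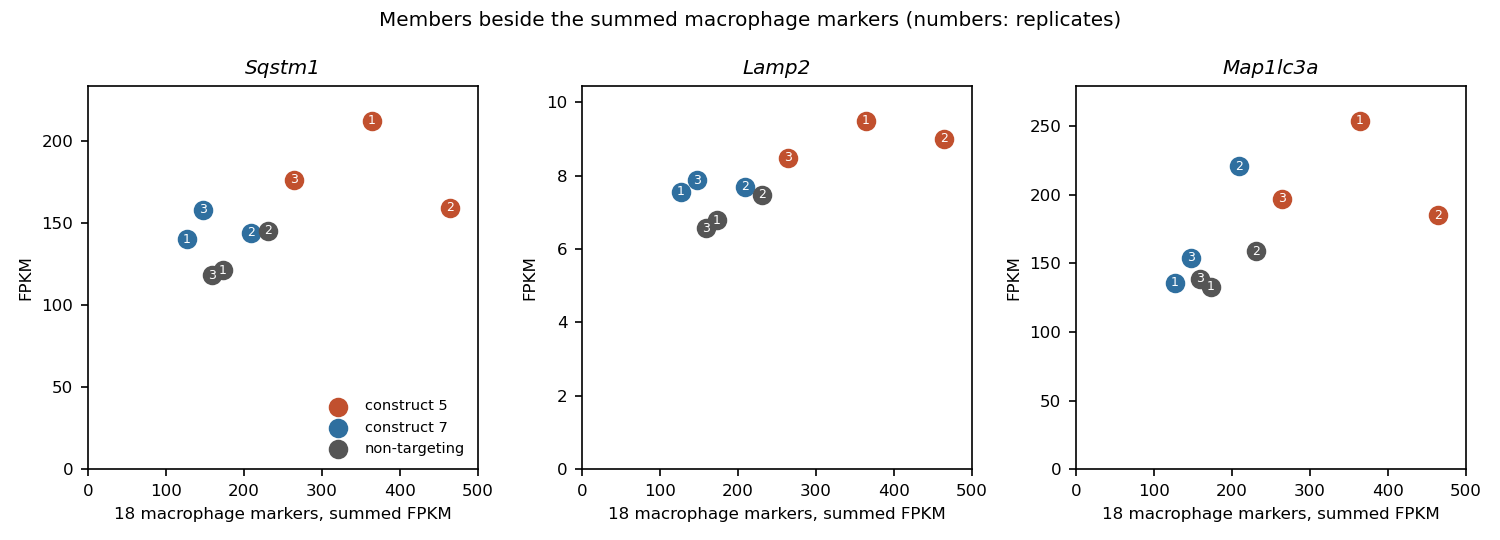
FPKM of Sqstm1, Lamp2 and Map1lc3a (vertical axes) against the summed FPKM of 18 macrophage markers (horizontal axes) in each library, with the replicate number in the point. Construct 5 libraries lie at 264 to 464 FPKM of markers, right of construct 7 (127 to 209 FPKM) and of the non-targeting libraries (159 to 231 FPKM).

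Other autophagy and lysosome genes were described from 8 lists arranged by step, with 74 of 76 genes tested. With construct 5, 2 of 74 were called higher, a share below the 4.67% of all tested genes: Cd63, a tetraspanin of late endosomes, and Atp6v1h, a subunit of the proton pump that acidifies the lysosome. The median change of the 74 was 0.12 with construct 5 and 0.06 with construct 7, against 0.13 and 0.02 for all tested genes. With construct 7, 0 of 74 were called, against 0.0556% of all tested genes. Cd63 had 116, 90.8 and 92.0 FPKM with construct 5, 75.9, 77.3 and 76.9 FPKM with construct 7, and 67.7, 80.9 and 68.1 FPKM with the non-targeting siRNA, and rose by 0.45 with construct 5 (limma adjusted p = 0.0492). Atp6v1h had 10.2, 10.2 and 9.96 FPKM with construct 5, 9.5, 9.32 and 9.02 FPKM with construct 7, and 7.86, 7.74 and 6.72 FPKM with the non-targeting siRNA. It lay above the non-targeting libraries with both constructs and rose by 0.40 with construct 5 (limma adjusted p = 0.0406), with 0.29 for construct 7 (limma adjusted p = 0.278). Scaled, neither was called (limma adjusted p = 0.114 for Cd63 and 0.0877 for Atp6v1h).

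At the start of the pathway none of the listed genes was called with either construct. In the initiation list (5 genes) Rb1cc1, the scaffold of the Ulk1 complex, and Ambra1, a Becn1 partner, had estimates of 0.13 each with construct 5 and of 0.13 and 0.15 with construct 7. In the class III PI3K list (6 genes) Uvrag and Nrbf2, both Becn1 complex subunits, had estimates of 0.29 and 0.27 with construct 5 (limma adjusted p = 0.0611 and 0.0558) and 0.04 and 0.07 with construct 7. In the membrane supply list (10 genes tested) the scramblase Atg9a had -0.15 and -0.17, and Wipi1, which binds the marked membrane, had 0.24 with each construct.

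The conjugation list (12 genes) included Atg5, the partner of Atg12, which had 6.75, 5.84 and 6.00 FPKM with construct 5, 6.48, 5.67 and 6.53 FPKM with construct 7, and 5.41, 4.90 and 5.03 FPKM with the non-targeting siRNA. Like Atg12, it was above the non-targeting libraries with both constructs, with estimates of 0.23 and 0.24 that were not called (limma adjusted p = 0.0926 and 0.385). The protease Atg4a, which trims Atg8 proteins before they are attached, had 0.32 with construct 5 and 0.14 with construct 7 and was not called.

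Among the receptors (14 genes tested) Nbr1, which binds ubiquitinated cargo together with Sqstm1, had 19.9, 17 and 16.5 FPKM with construct 5, 16.7, 17.5 and 17.3 FPKM with construct 7, and 12.7, 14.9 and 14.2 FPKM with the non-targeting siRNA. All 6 Ubr4 siRNA libraries exceeded the non-targeting ones, with estimates of 0.33 and 0.29 (limma adjusted p = 0.0558 and 0.365). The adaptor Tollip had 0.31 and 0.21 (limma adjusted p = 0.0503 and 0.421). Over the 14 receptors the median change with construct 5 was 0.14, against 0.13 for all tested genes. Scaled, both medians were 0.02. In all 6 Ubr4 siRNA libraries 3 of the 14 lay above the non-targeting ones, against 8.04% of all tested genes.

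In the fusion list (13 genes) Stx17, the SNARE of the autophagosome, had the larger estimate with construct 7, 0.32 (limma adjusted p = 0.286), and 0.19 with construct 5, and Vps11, of the tethering complex, had 0.12 with construct 7 and 0.19 with construct 5. The proton pump subunit Atp6v1a had 0.39 with construct 5 (limma adjusted p = 0.0503) and 0.35 with construct 7. In the list of transcription factors (5 genes) Zkscan3, a repressor of autophagy genes in human cells, had 0.26 and 0.14 and Foxo3, an activator of them in muscle, 0.18 and 0.06 with construct 5 and construct 7. Over all 8 lists 10 of 74 genes lay above the non-targeting libraries in all 6 Ubr4 siRNA libraries, against 8.04% of all tested genes.

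Sqstm1 protein also binds Keap1, which holds the antioxidant factor Nrf2 (Nfe2l2) in check, and Sqstm1 is itself an Nrf2 target. Of 8 genes of that arm, 3 were called with construct 5, against 5.27% of all tested genes, and 0 with construct 7, against 0.0556%. Nfe2l2 rose by 0.48 (limma adjusted p = 0.0344), and its targets Nqo1, a quinone reductase, and Srxn1, which repairs peroxiredoxins, by 1.13 and 0.63 (limma adjusted p = 0.0344 and 0.0493). After median-ratio scaling Nqo1 alone of the 3 was called, at 1.0 (limma adjusted p = 0.0333), against 0.667% of all tested genes. Of 16 other settings, Nqo1 kept its call in 8, Nfe2l2 in 7 and Srxn1 in 4. The list was chosen with earlier results of these data known, so its share of calls is a description only. A link between these genes and Sqstm1 was not tested.

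Across the 9 libraries the tested genes whose log2(FPKM + 1) most resembled that of Sqstm1 were the RNA helicase Ddx21 (Pearson r 0.98), the proteasome ubiquitin receptor Adrm1 (0.97), the nuclear transport GTPase Ran (0.97), the ubiquitin-conjugating enzyme Ube2g2 (0.96) and Cd63 (0.96). The libraries share the upward shift of construct 5, and the median r of all tested genes with Sqstm1 was 0.40 as deposited and 0.04 after median-ratio scaling. Scaled, the same 5 genes had r of 0.97, 0.89, 0.92, 0.93 and 0.93. Among the members Lamp2 was closest to Sqstm1, with r of 0.94 as deposited and 0.90 scaled, followed by Map1lc3a (0.81 and 0.73) and Atg12 (0.79 and 0.65). Becn1 had 0.66 and 0.22. Map1lc3b ran the other way, with r of -0.57 as deposited and -0.83 scaled. So did Gabarapl1 (-0.51 and -0.55) and, more weakly as deposited, Ulk1 (-0.3 and -0.6). Bnip3 had -0.1 and -0.33, and Tfeb had 0.29 and -0.1. These correlations describe 9 libraries and carry no test.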

How the data were processed

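RNA of 9 mouse muscle libraries was sequenced by the authors, who deposited FPKM values per gene; BWA, STAR, HTSeq and genome mm9 are named per the submitters' processing notes, with versions and roles not given in the sources used here. Strand is not stated, so overlapping genes are uncertain. The 10794 of 23231 genes with a mean of at least 1 FPKM were tested on log2(FPKM + 1), a scale that understates changes of low genes, by limma (version 3.58.1; linear model per gene, moderated variance with trend; R 4.3.3) over all 9 libraries in 4 contrasts, two-sided, with Benjamini-Hochberg adjustment. Median-ratio scaling was applied to FPKM. Low FPKM values gave read depths (72.4% of 51850 values under 50 reads lay within 0.1 of a whole number, with GENCODE M21 gene lengths for 21323 genes); voom used these reads. Fits were tested on simulated data. Named are Ubr4, the 10 members, listed genes called in any contrast, the 2 of each list with the smallest p for both constructs, and the 5 genes most correlated with Sqstm1. Members and lists were chosen with earlier results of these data known. Figures used Python 3.11.15 and matplotlib 3.10.9.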

Additional observations from a re-analysis of the deposited data

Results flagged for a closer look

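The difference between the constructs passed its own test for 0 of the 10 members, 0 of the 74 other autophagy and lysosome genes and 1 of the 8 Keap1-Nrf2 genes, against 1.22% of all tested genes. Nqo1, a quinone reductase and Nrf2 target, had 7.42, 7.14 and 7.83 FPKM with construct 7 and 21.4, 16.5 and 12.1 FPKM with construct 5, beside 7.12, 7.39 and 6.26 FPKM with the non-targeting siRNA. Construct 7 minus construct 5 was -1.03 on the log2 scale (limma adjusted p = 0.0305), and -0.93 after median-ratio scaling (adjusted p = 0.0353). The call held in 9 of 16 other settings, with limma adjusted p-values from 0.0169 to 0.102. Sqstm1, by the same test, had -0.30 (limma adjusted p = 0.186). The direction was not particular to Nqo1: all 8 Keap1-Nrf2 genes, all 17 macrophage and all 8 fibroblast markers tested had estimates below 0. Of all tested genes 24.5% had estimates above 0 in this contrast. Called lower were 3 of the macrophage and 4 of the fibroblast markers, and 1 and 2 were called after median-ratio scaling. These lists were chosen with earlier results of these data known.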

How the results depend on the processing

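Calls with construct 5 depended on the settings. Against 569 genes and 3 members reported, a pseudocount of 0.1 called 316 genes and 1 member, no filter 5 and 0, a filter at 5 FPKM 153 and 1, median-ratio scaling 72 and 0, only the 6 libraries compared 246 and 0, and voom 586 and 3. Leaving out 1 library gave 1 to 581 genes and 0 to 2 members. No setting called a member in the other contrasts. With construct 7 the 6 genes became 0 without the filter, 2 with only 6 libraries and 0 to 5 without 1 library. For the mean of both constructs the 1 gene became 0 without the filter, 2 with the filter at 5 FPKM, 2 with voom and 0 to 7 without 1 library. Construct 7 against construct 5 called 132 genes, and 10 without the filter, 48 with the filter at 5 FPKM, 76 with median-ratio scaling, 23 with only 6 libraries and 3 to 387 without 1 library. Ubr4 kept its call with construct 5 in 12 of 16 settings.

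Replicate numbers are shared between groups, but same-numbered libraries had deviations that correlated from -0.364 to 0.313, and the labels do not say what a number marks, so the numbers were not taken to pair the libraries. With the replicate number as a block, 11 genes and 0 members were called with construct 5, 7 genes with construct 7, 4 for both and 217 between constructs.

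Directions turned only where changes were near 0. Under median-ratio scaling Tfeb had -0.0039 with construct 5 and 0.09 between constructs, and Bnip3 had -0.06 for both constructs. Leaving out 1 library gave Bnip3 -0.08 to 0.008 with construct 5 and -0.01 to 0.07 for both constructs. With construct 7 it gave Map1lc3b -0.12 to 0.02, Becn1 -0.0074 to 0.08 and Tfeb -0.01 to 0.22, and between constructs Map1lc3b -0.01 to 0.13 and Tfeb -0.13 to 0.10. The cause of these shifts was not tested. With 3 libraries a group, estimates near 3 SE, such as those of Map1lc3a with construct 5, did not pass.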
